A study of Mus musculus with 6 samples.

Results

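The platelet-derived growth factor (PDGF) system and the receptor Kit with its ligand are described here in mouse kidney explants exposed to a histone deacetylase (HDAC) inhibitor or its inactive control. The 8 genes are the ligand genes Pdgfa, Pdgfb, Pdgfc and Pdgfd, the receptor genes Pdgfra and Pdgfrb, and Kit with its ligand gene Kitl. They were taken from the array files by gene name, which gave 15 probes for these 8 genes, of 41174 probes for 27962 gene names on the array. All 15 probes entered the test.

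Kidneys of CD1 mice at E13.5 were grown as explants and given Scriptaid, an HDAC inhibitor, or Nullscript, its inactive structural relative, each at 2.0 µg/ml for 6 hours. Paired kidneys received the different drugs, and no genotype other than the outbred CD1 stock is named. Total RNA of both treatments was hybridised together to 2-colour Agilent arrays. Each of 3 biological replicates was measured on 2 arrays, 1 for each dye of the channel labelled Scriptaid (Cy3 or Cy5). The sources used here do not give the number of embryos behind a replicate. Replicates 1 and 2 lay on 1 slide and replicate 3 on another.

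Each array held 45018 spots, and between 91.5% and 96.5% of the 43379 spots other than controls were well above background in a channel. The direction of the ratios is not settled. H1f0, Gsn and Cdkn1a are known to be higher after HDAC inhibition in many cell types, yet their log2 ratios, taken as labelled Scriptaid over labelled Nullscript, were -1.001 ± 0.15, -1.04 ± 0.14 and -0.91 ± 0.16 (SD, n = 3 replicates). The study is understood to report kidney regulator genes in the direction opposite to the labelled channels, but no file used here records this, and nothing below rests on it. Every value below is given for "the channel labelled Scriptaid" and "the channel labelled Nullscript", and higher or lower means higher or lower in the channel labelled Scriptaid. An exchange of the drug names would turn all signs given here.

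PDGF ligands are secreted as dimers that bind receptor tyrosine kinases on neighbouring cells. The alpha receptor, encoded by Pdgfra, binds the A, B and C chains, and the beta receptor, encoded by Pdgfrb, is the main receptor of the B and D chains. In the developing kidney, both receptors mark stromal and mesenchymal cells, and PDGF-B from endothelium recruits mesangial cells to the glomerulus through the beta receptor. Kit is a related receptor of the same class whose ligand, stem cell factor, is encoded by Kitl, and it is known for its roles in blood progenitors, mast cells, melanocytes and germ cells.

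The sequences upstream of the starts of these genes are shown so that their base composition can be read beside the ratios given below. RefSeq windows (GRCm38.p6) of the 250 bases before a start were matched by symbol for 6 of the 8 genes, with 8 windows in all. Capitals mark the GC box GGGCGG, searched on both strands so that it can also read CCGCCC, with overlapping matches counted, and the letters TATAAA on the strand of the gene. Each window is written 5′ to 3′ on the strand of its gene. Pdgfc lies on the plus strand at chr3:81036166-81036415, Pdgfd on the plus strand at chr9:6168236-6168485 and Pdgfra on the plus strand at chr5:75152001-75152250. The first Kit window lies on the plus strand at chr5:75574737-75574986, and Kitl lies on the plus strand at chr10:100015571-100015820.
Pdgfc: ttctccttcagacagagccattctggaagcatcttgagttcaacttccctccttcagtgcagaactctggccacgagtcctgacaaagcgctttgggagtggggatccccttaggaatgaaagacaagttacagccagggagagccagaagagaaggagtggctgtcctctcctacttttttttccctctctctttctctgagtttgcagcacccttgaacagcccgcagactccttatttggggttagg
Pdgfd: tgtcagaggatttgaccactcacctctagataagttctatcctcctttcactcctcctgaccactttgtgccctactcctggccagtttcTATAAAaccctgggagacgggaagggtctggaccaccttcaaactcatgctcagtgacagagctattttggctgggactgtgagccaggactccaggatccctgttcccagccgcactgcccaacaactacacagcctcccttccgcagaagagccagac
Pdgfra: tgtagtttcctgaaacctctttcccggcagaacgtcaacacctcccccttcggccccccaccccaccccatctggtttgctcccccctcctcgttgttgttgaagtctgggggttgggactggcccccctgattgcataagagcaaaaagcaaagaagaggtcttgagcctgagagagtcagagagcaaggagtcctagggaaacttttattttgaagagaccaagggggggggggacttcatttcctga
Kit: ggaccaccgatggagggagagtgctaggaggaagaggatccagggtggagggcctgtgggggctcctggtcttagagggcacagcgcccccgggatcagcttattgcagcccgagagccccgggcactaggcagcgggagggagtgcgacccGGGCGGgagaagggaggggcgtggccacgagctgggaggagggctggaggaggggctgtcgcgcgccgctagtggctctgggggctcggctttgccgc
Kitl: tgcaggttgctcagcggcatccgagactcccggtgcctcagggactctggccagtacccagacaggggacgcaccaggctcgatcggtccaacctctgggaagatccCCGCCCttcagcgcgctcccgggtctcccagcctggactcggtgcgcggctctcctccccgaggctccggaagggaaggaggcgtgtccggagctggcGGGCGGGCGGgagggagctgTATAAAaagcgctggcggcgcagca
The windows of Pdgfc, Pdgfd and Pdgfra held no GGGCGG and had 3, 3 and 4 CpG dinucleotides. The Kit window held 1 GC box and 17 CpG, and the Kitl window held 3 GC boxes, of which a pair overlap, and 23 CpG. Both windows of Pdgfa, on the minus strand of chromosome 5, held GC boxes and had 19 and 28 CpG. Of all 32851 windows, 32.7% held GGGCGG and 7.6% held TATAAA, and the median window had 6 CpG. A match of letters is a description of these windows only.

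Most of the 8 genes gave more signal in the channel labelled Scriptaid, and Pdgfc had the largest ratio of them, at 2.34-fold for its brightest probe and 2.52-fold for another. Of the 15 probes, 10 passed the test as higher, 1 passed as lower and 4 did not pass (limma on the mean of 3 replicates, Benjamini-Hochberg adjusted p below 0.05 over all probes). Over all 39407 probes tested, 23.5% were called higher and 21.8% lower. The median log2 ratio of the 15 probes was 0.51, beside -0.004 for all probes tested. Taken by the brightest probe, 7 genes were higher and Kitl was lower, where 22.5% of all 26500 genes were called higher and 23.7% lower. By the brightest probe, Pdgfc, Pdgfra and Pdgfd had the largest ratios among the 6 genes with a window shown or described above. Their windows held no GGGCGG, a description of 6 genes with no test. Other probes did not keep this order. The dimmer Pdgfra probe at 0.12 and the third Pdgfc probe at -0.01 lay below Kit at 0.33 and Pdgfa at 0.51. Pdgfb and Pdgfrb had no window. The RNA came from whole explants, so more cells of a type and more RNA per cell cannot be told apart.

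**Figure D1:**
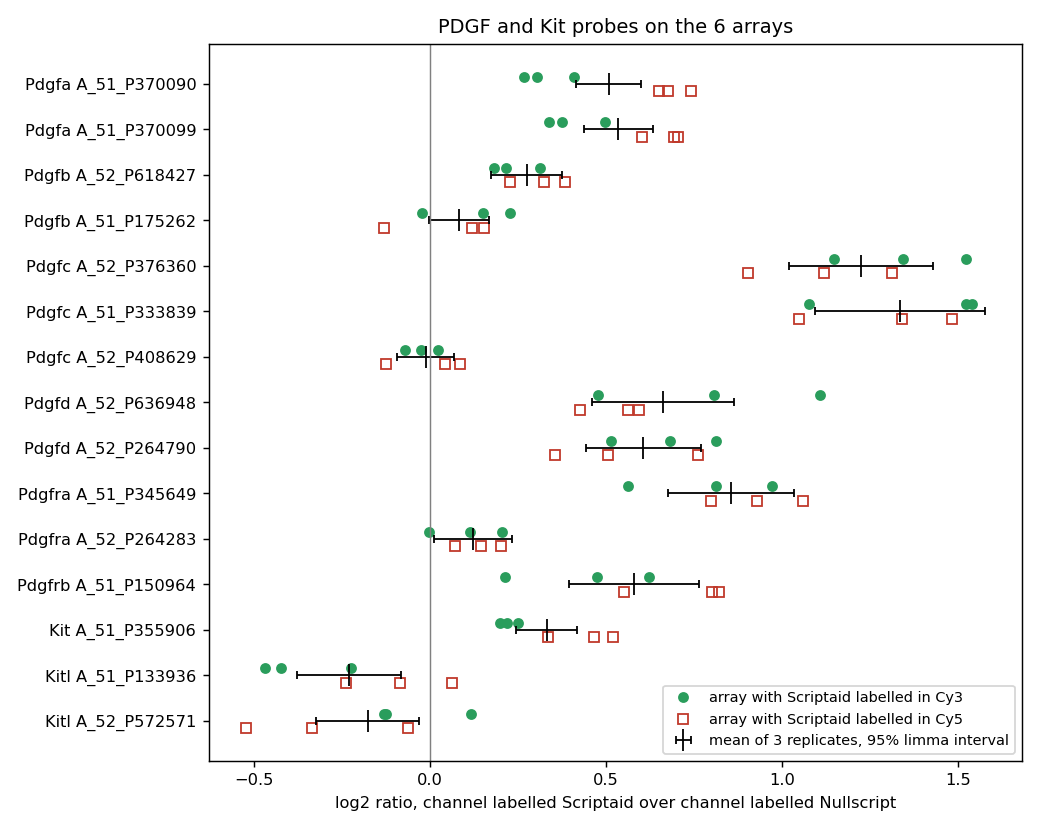
Log2 ratio, labelled Scriptaid over labelled Nullscript, for each of the 15 probes on each of the 6 arrays, with the dye of Scriptaid by symbol and the mean of 3 replicates with its 95% limma interval in black. The 2 bright Pdgfc probes lie at 0.90 or above on all 6 arrays, while the third Pdgfc probe and the dimmer probes of Pdgfra and Pdgfb lie close to 0.

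Pdgfc encodes a PDGF chain that is secreted in latent form and, once cleaved, binds the alpha receptor. Its brightest probe, A_52_P376360, gave log2 intensities of 11.63, 11.42 and 11.65 in the channel labelled Scriptaid, against 10.21, 10.40 and 10.42 in the channel labelled Nullscript in replicates 1, 2 and 3. All values of the channel labelled Scriptaid exceeded all values of the channel labelled Nullscript. How many of all probes do the same was not counted, for this probe or for those below. The log2 ratio was 1.23 ± 0.20 (SD, n = 3; 95% interval 1.02 to 1.43; limma adjusted p = 0.000441). A second probe, A_51_P333839, gave 11.53, 11.26 and 11.59 in the channel labelled Scriptaid, against 10.03, 10.20 and 10.15 in the channel labelled Nullscript, again without overlap. Its log2 ratio was 1.34 ± 0.24 (SD, n = 3; 95% interval 1.09 to 1.58; limma adjusted p = 0.000534).

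The third Pdgfc probe, A_52_P408629, did not follow the others. It is listed under a different sequence record from the others. Its intensities were 6.39, 6.28 and 6.70 in the channel labelled Scriptaid, against 6.39, 6.27 and 6.76 in the channel labelled Nullscript, and the ranges overlapped. Its log2 ratio was -0.01 ± 0.03 (n = 3; 95% interval -0.09 to 0.07; limma adjusted p = 0.779). It was well above background on all 6 arrays for the channel labelled Scriptaid and on 5 for the channel labelled Nullscript. Relative to the brightest probe, its ratio was lower by a difference of -1.24 (95% interval -1.45 to -1.03; limma adjusted p = 0.0006 over the same kind of difference in all genes with several probes). With plain median centring in place of loess, its log2 ratio was -0.25 and passed (limma adjusted p = 0.0107).

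Pdgfa encodes the A chain, a ligand of the alpha receptor. Its probe A_51_P370090 gave log2 intensities of 13.96, 14.32 and 13.98 in the channel labelled Scriptaid, against 13.38, 13.84 and 13.51 in the channel labelled Nullscript. The second probe, A_51_P370099, gave 10.69, 10.91 and 10.64, against 10.09, 10.37 and 10.17 in the channel labelled Nullscript. For both probes the ranges did not overlap. The log2 ratios were 0.51 ± 0.06 and 0.54 ± 0.07 (SD, n = 3), or 1.42-fold and 1.45-fold, and both passed (limma adjusted p = 0.000532 for each). The difference between the probes was 0.03 and did not pass (limma adjusted p = 0.671).

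Pdgfd encodes the D chain, a ligand of the beta receptor that is also secreted in latent form. Probe A_52_P636948 gave 9.54, 9.47 and 9.27 in the channel labelled Scriptaid, against 8.70, 9.02 and 8.57 in the channel labelled Nullscript. Probe A_52_P264790 gave 7.88, 7.71 and 7.78, against 7.15, 7.28 and 7.12 in the channel labelled Nullscript. In each probe the lowest value of the channel labelled Scriptaid lay above the highest of the channel labelled Nullscript. The log2 ratios were 0.66 ± 0.19 and 0.61 ± 0.15 (SD, n = 3; limma adjusted p = 0.00228 and 0.00156).

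Pdgfb encodes the B chain, which binds both receptors, and its probes gave the smallest ratios among the PDGF ligands apart from the third Pdgfc probe. Probe A_52_P618427 gave 9.55, 9.48 and 9.66 in the channel labelled Scriptaid, against 9.20, 9.21 and 9.45 in the channel labelled Nullscript, without overlap. Its log2 ratio of 0.27 ± 0.07 passed (SD, n = 3; limma adjusted p = 0.00428). Probe A_51_P175262 gave 7.46, 7.39 and 7.46 in the channel labelled Scriptaid, against 7.32, 7.32 and 7.42 in the channel labelled Nullscript, with overlap. Its log2 ratio of 0.08 ± 0.05 did not pass (95% interval -0.003 to 0.17; limma adjusted p = 0.106). From the processed signals of the scanner software it was 0.20 and passed (limma adjusted p = 0.0166). The difference of -0.19 between the probes passed (95% interval -0.30 to -0.08; limma adjusted p = 0.0235), but not without replicate 2 or without replicate 3 (-0.18 and -0.21; limma adjusted p = 0.0903 and 0.116).

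**Figure D2:**
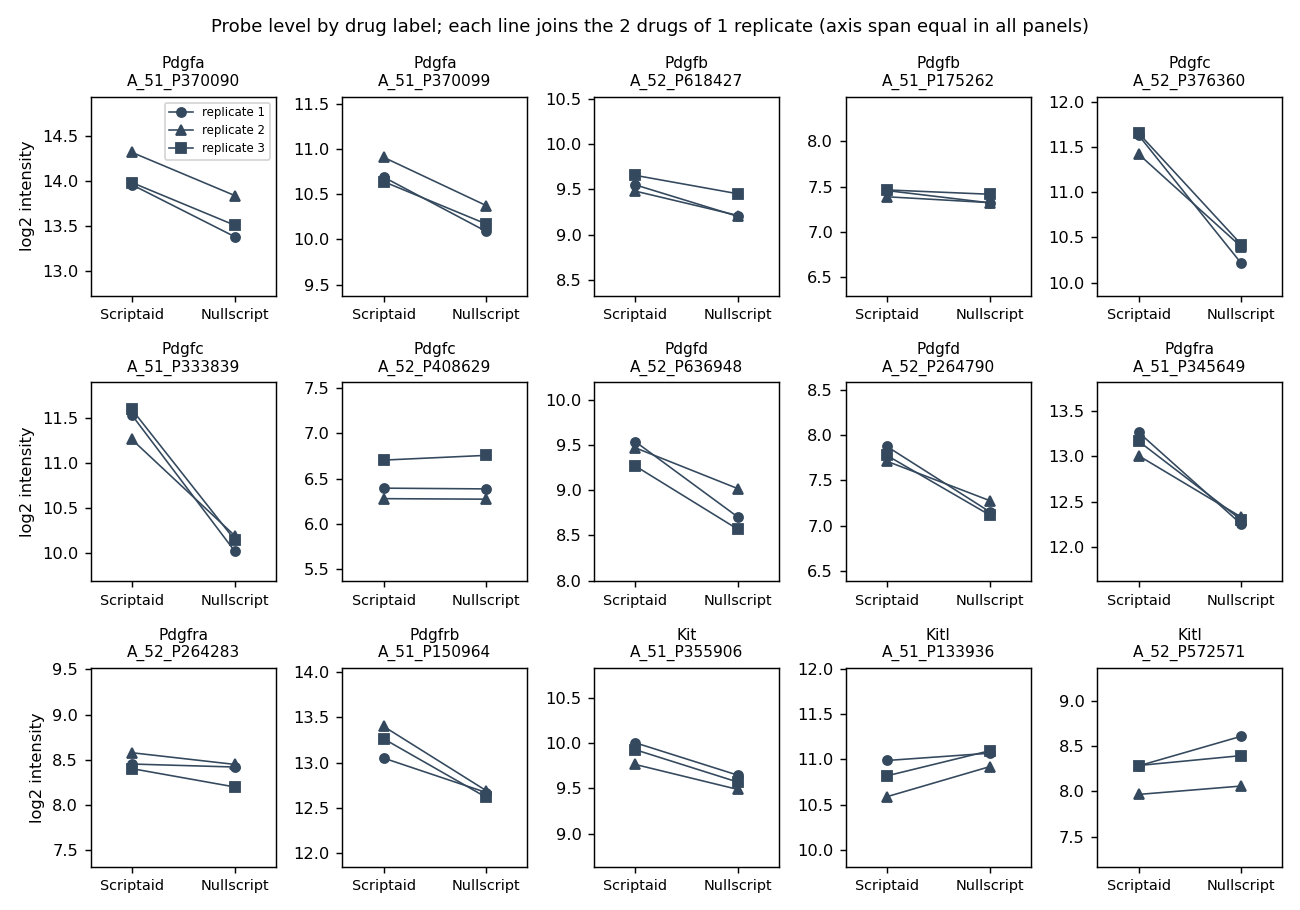
Log2 intensity of each of the 15 probes in the channel labelled Scriptaid (left of each pair) and the channel labelled Nullscript, with a line for each of the 3 replicates. The ranges do not overlap for the 10 probes called higher. The share of all tested probes without overlap was not counted, so this describes these probes only. Intensities are not comparable between probes.

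Among the receptors, Pdgfra encodes the alpha receptor, and its brightest probe had the largest ratio of the receptor genes. This probe, A_51_P345649, gave 13.27, 13.01 and 13.17 in the channel labelled Scriptaid, against 12.25, 12.33 and 12.30 in the channel labelled Nullscript. The ranges did not overlap, and the log2 ratio was 0.86 ± 0.17 (SD, n = 3; 95% interval 0.68 to 1.04; limma adjusted p = 0.000766), or 1.81-fold. The dimmer probe, A_52_P264283, gave 8.45, 8.58 and 8.40 in the channel labelled Scriptaid, against 8.42, 8.45 and 8.20 in the channel labelled Nullscript, with overlap. Its log2 ratio of 0.12 ± 0.09 did not pass (95% interval 0.01 to 0.23; limma adjusted p = 0.0740), and without replicate 1 it was 0.17 and passed (limma adjusted p = 0.0318). With the 6 arrays fitted and the replicate as a block it was 0.12 and passed (limma adjusted p = 0.0276). The ratios of the probes differed by -0.73 (dimmer minus brightest; 95% interval -0.96 to -0.51; limma adjusted p = 0.0031).

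Pdgfrb encodes the beta receptor and was measured by 1 probe, A_51_P150964. Its log2 intensities were 13.05, 13.40 and 13.27 in the channel labelled Scriptaid, against 12.67, 12.69 and 12.62 in the channel labelled Nullscript. The lowest value of the channel labelled Scriptaid was above the highest of the channel labelled Nullscript. The log2 ratio was 0.58 ± 0.18 (SD, n = 3; 95% interval 0.40 to 0.77; limma adjusted p = 0.00265). By replicate, the ratio of Pdgfrb was 0.38, 0.71 and 0.65 in replicates 1, 2 and 3, against 1.02, 0.68 and 0.87 for the brightest Pdgfra probe. Pdgfrb was thus lowest in replicate 1, where the Pdgfra probe was highest. Replicate 2 gave the lowest ratios for the brightest probes of Pdgfc, Pdgfd and Pdgfra, and over 17815 called probes its median absolute log2 ratio was 0.30, beside 0.38 in replicate 1 and 0.36 in replicate 3.

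Kit, the receptor of stem cell factor, was called higher by its single probe. Its probe, A_51_P355906, gave 10.01, 9.77 and 9.93 in the channel labelled Scriptaid, against 9.65, 9.49 and 9.57 in the channel labelled Nullscript. The ranges did not overlap. The log2 ratio was 0.33 ± 0.05 (SD, n = 3; 95% interval 0.25 to 0.42; limma adjusted p = 0.00139), or 1.26-fold. Kit was positive on all 6 arrays, at 0.20, 0.22 and 0.25 with Scriptaid in Cy3 and 0.52, 0.34 and 0.47 with Scriptaid in Cy5.

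Kitl, which encodes the ligand of Kit, was the 1 gene of the 8 called lower. Its brightest probe, A_51_P133936, gave 10.99, 10.59 and 10.82 in the channel labelled Scriptaid, against 11.07, 10.92 and 11.09 in the channel labelled Nullscript. The ranges overlapped, although each replicate was lower. The log2 ratio of -0.23 ± 0.13 passed (SD, n = 3; 95% interval -0.38 to -0.08; limma adjusted p = 0.0267), but the call was lost under 6 of 14 alternatives. Without replicate 2 it was -0.18 (limma adjusted p = 0.0982), without replicate 3, which leaves the slide of replicates 1 and 2, -0.21 (limma adjusted p = 0.148), and with the slide as a block -0.24 (limma adjusted p = 0.0683).

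The second Kitl probe, A_52_P572571, gave 8.28, 7.97 and 8.29 in the channel labelled Scriptaid, against 8.61, 8.06 and 8.40 in the channel labelled Nullscript. Its log2 ratio of -0.18 ± 0.13 did not pass (limma adjusted p = 0.0581). The probes differed in which replicate departed most from 0. The brightest probe had -0.08, -0.33 and -0.28 in replicates 1, 2 and 3, and the second had -0.33, -0.09 and -0.11. Averaged over both probes, the log2 ratio of Kitl was -0.20 (95% interval -0.27 to -0.14; limma adjusted p = 0.00220 over all genes), a value added after the data had been seen. The departures of both probes offset each other across replicates, which narrows this interval and lowers this p-value. Neither measures the disagreement between the probes, so the average is not a firmer call than those of the single probes.

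**Figure D3:**
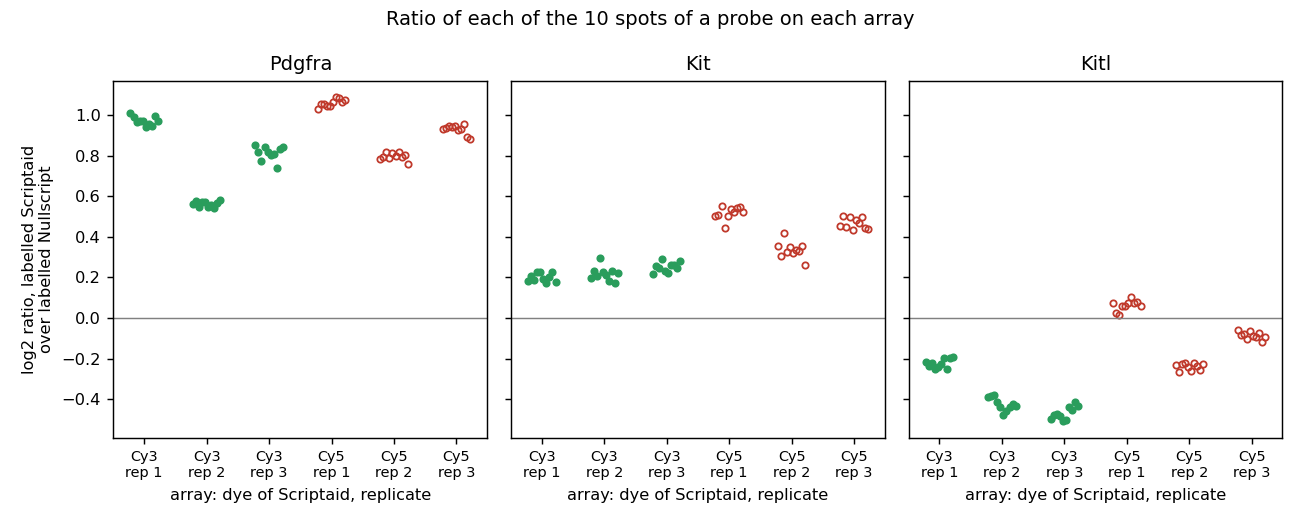
Log2 ratios of the 10 single spots of the Kit, Kitl and Pdgfra probes that are printed 10 times on an array, for each of the 6 arrays. The spots of an array lie close together, all Pdgfra spots are above 0.54 and the Kitl spots are above 0 on the replicate 1 array with Scriptaid in Cy5 and below 0 on the other 5.

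The probes of Kit, Kitl (A_51_P133936) and Pdgfra (A_51_P345649) were printed 10 times on each array, which shows the spread between spots of the same RNA. The SD over the 10 spots was between 0.013 and 0.040 on the log2 scale on every array. The single spots of Pdgfra ranged from 0.54 to 1.09, and those of Kit from 0.17 to 0.55. All 10 Kitl spots lay above 0 on the replicate 1 array with Scriptaid in Cy5, at 0.02 to 0.10, and all were below 0 on the other 5 arrays. The Kitl array means were -0.22, -0.42 and -0.47 with Scriptaid in Cy3 and 0.06, -0.24 and -0.09 with Scriptaid in Cy5. The spread between arrays was therefore larger than the spread between spots.

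The dye orientation was compared for each probe with the replicate as a block. Only the Pdgfa probe A_51_P370090 passed, with a log2 ratio larger by 0.36 with Scriptaid in Cy5 than with Scriptaid in Cy3 (limma adjusted p = 0.0172). Over all probes, 3.82% were called. The Kitl difference of 0.29 (limma adjusted p = 0.123), that of Pdgfrb of 0.29 (limma adjusted p = 0.176) and that of Kit of 0.22 (limma adjusted p = 0.0985) did not pass. Of the 15 probes, 10 had the same sign on all 6 arrays, beside 17109 of the 39407 probes tested.

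Ratios of probes for the same gene were set against each other in 7 pairs of these genes. The 3 pairs that passed were the third Pdgfc probe, the dimmer Pdgfra probe and the dimmer Pdgfb probe, each against the brightest of its gene. In all genes, 36.4% of 12907 such pairs were called. In each of these 3 pairs the smaller ratio came from the dimmer probe. The background correction added an offset to the intensities, and its part in the smaller ratios of dim probes was not tested. Under the alternatives, the highest ratio was 0.0071 for the third Pdgfc probe, 0.17 for the dimmer Pdgfra probe and 0.20 for the dimmer Pdgfb probe. The dimmer Pdgfra and Pdgfb probes share the sequence record of their brightest probe, and the third Pdgfc probe does not. Whether the dimmer probes detect the same transcripts was not tested. The pairs of Kitl, Pdgfa and Pdgfd, and the second Pdgfc probe against the brightest, did not pass, with differences of 0.05, 0.03, -0.06 and 0.11. The Kitl pair differed by 0.20 without replicate 1, where it passed (limma adjusted p = 0.0350).

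**Figure D4:**
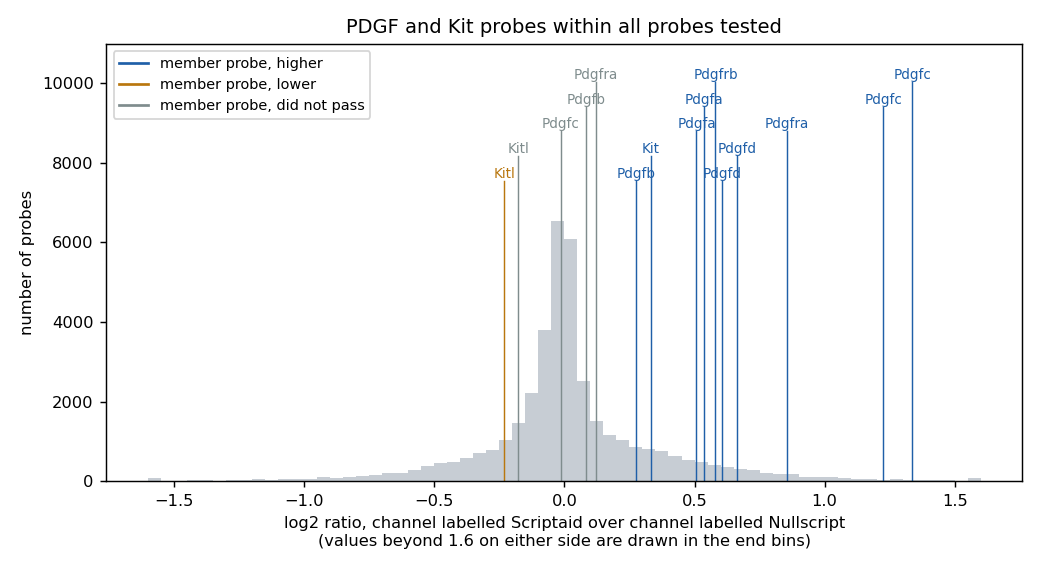
Histogram of the mean log2 ratio, labelled Scriptaid over labelled Nullscript, of all 39407 probes tested, with the number of probes on the vertical axis and vertical lines at the 15 probes of the 8 genes, whose heights carry no value. Values past the axis are drawn in the end bins, and the 2 Pdgfc probes at 1.23 and 1.34 lie in the sparse right tail.

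Genes with the most similar pattern over the 6 arrays were found for the called probes with the highest and the lowest ratio, by Euclidean distance of log2 ratios among 19208 named genes. The Pdgfc probe A_51_P333839 was nearest to Scara3 (distance 0.188), Vegfc (0.210), which encodes a lymphatic endothelial growth factor, and Car14 (0.231), which encodes a carbonic anhydrase. Their mean log2 ratios were 1.28, 1.28 and 1.34. The Kitl probe A_51_P133936 was nearest to Commd1 (0.126), Atp5l (0.131), which encodes a subunit of ATP synthase, and Timm22 (0.137), which encodes a mitochondrial import protein. Their mean log2 ratios were -0.20, -0.22 and -0.25. Because genes were chosen by the distance of these ratios, means near that of the probe follow from the choice and are not a result.

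The other genes of these pathways were then read from 13 lists, each gene by its brightest probe, against the 22.5% of genes called higher and 23.7% called lower. Without the 8 genes the lists held 142 genes, all of which were tested, and 64 were higher, 41 lower and 37 did not pass. Without replicate 3, 53 were higher and 24 lower. Calls over all probes also fell in both directions in that setting, as given below, and the shares of all genes above are not for it. Some genes stand in more than 1 list. Each of the 142 was well above background for at least 1 drug because the filter required it, so this is not a result.

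Of 7 genes for ligand activation and co-receptors, 6 were higher and 1 lower, with a median log2 ratio of 0.27. Nrp1, a co-receptor of several growth factors, was at 0.94 ± 0.14, with its other probes between 0.47 and 0.60. Furin, a convertase that processes the A and B chains, was at 0.75 ± 0.10, with another probe at -0.01, and the convertase Pcsk5 at 0.37 ± 0.11, with others from -0.16 to 0.28. Plat, the tissue plasminogen activator that cleaves latent PDGF-C, was the 1 lower gene, at -0.47 ± 0.09 with its other probes from -0.36 to -0.30 (SD, n = 3).

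Of 28 genes that relay the receptor signal, 11 were higher, 11 lower and 6 did not pass, with a median of 0.08. Stat3, a transcription factor activated by phosphorylation, was at -0.86 ± 0.18 (another probe at -0.08) and the phosphatase gene Ptpn1 at -0.77 ± 0.12. The adaptor gene Grb10 was at 0.78 ± 0.07, with other probes from 0.58 to 0.91, and the kinase gene Src at 0.76 ± 0.12, with another Src probe at 0.10. Of 12 immediate early genes that PDGF is known to induce, 2 were higher and 8 lower, with a median of -0.30. Myc, a transcription factor, was at 1.71 ± 0.28, with other probes from 0.30 to 1.76. Fos, a subunit of the factor AP-1, was at -1.52 ± 0.49.

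The zinc finger genes Egr1 and Egr2 were also lower, and they varied among replicates. Egr1 was at -2.22, -0.80 and -1.32 in replicates 1, 2 and 3 (mean -1.45 ± 0.71; limma adjusted p = 0.00943), and without replicate 3 its call was lost (-1.51; limma adjusted p = 0.0535). Egr2 was at -1.26 ± 0.96 (limma adjusted p = 0.0394), and its call was lost without replicate 3 (-1.40; limma adjusted p = 0.117) and with the slide as a block (-1.19; limma adjusted p = 0.110).

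Of 13 genes known to regulate Kit or PDGF genes, 9 were higher and 4 lower, with a median of 0.40. Tcf21, a helix-loop-helix factor of kidney mesenchyme, was at 1.69 ± 0.20. The zinc finger factor gene Wt1 was at 0.97 ± 0.07 and Lmo2, a partner of Tal1 in blood progenitors, at 0.71 ± 0.13 (SD, n = 3). Of 5 genes for other class III receptors and their ligands, Csf1, the macrophage growth factor, was higher at 0.56 ± 0.15. Csf1r, its receptor, was at -0.14 ± 0.06 and Flt3l at -0.12 ± 0.01, both called lower, but both calls were lost under at least 5 of 14 alternatives, and Csf1r was at 0.02 with Scriptaid in Cy3 only. Other Csf1r probes were at -0.05 to 0.12. Flt3 at -0.08 and Il34 at 0.07 did not pass.

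**Figure D5:**
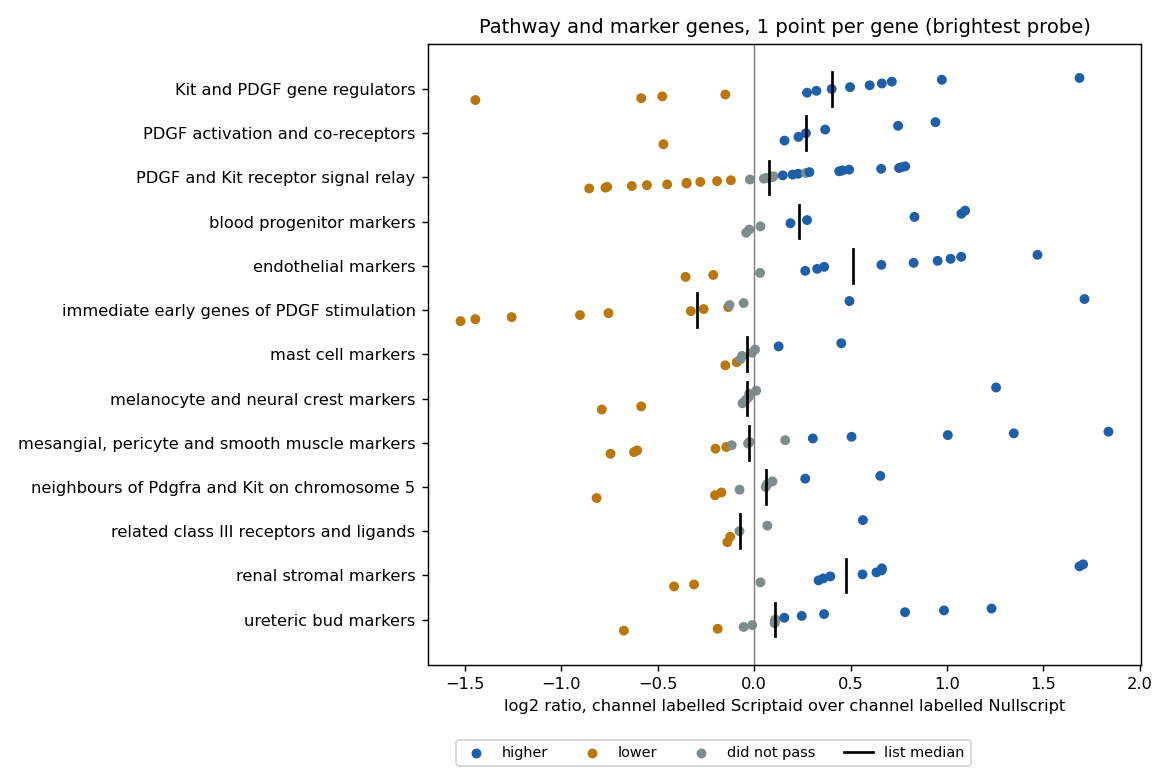
Log2 ratio of the brightest probe of each gene in the 13 lists, with genes that were higher, lower or did not pass by colour and the list median as a vertical bar. The medians run from -0.30 for the immediate early genes to 0.51 for the endothelial markers.

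In the reference gene table, Pdgfra, Kit, Kdr and Srd5a3 are consecutive protein-coding genes of chromosome 5. Their log2 ratios in that order were 0.86, 0.33, 0.26 and 0.65, and all 4 were called higher. Kdr, a receptor of vascular endothelial growth factor, had a second probe at 0.03, and Srd5a3, a steroid reductase, a second probe at 0.62. On the other side of Pdgfra, Gsx2, a homeobox gene of the brain, was called lower at -0.20 ± 0.08, a call lost under 6 of 14 alternatives. Of the 9 neighbours listed, 2 were higher, 3 lower and 4 did not pass, with a median of 0.06. Scfd2, a gene for a vesicle transport protein, was at -0.82 ± 0.12, with another probe at -0.04.

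Markers of the cells that carry these receptors were measured in the same libraries. Of 12 renal stromal markers, 9 were higher and 2 lower, with a median of 0.48, and their summed intensity ranged from 195984 to 200965 in the channel labelled Scriptaid and from 170520 to 181208 in the channel labelled Nullscript. Each such sum, here and below, adds probe intensities that are not comparable between probes. The brightest probes therefore weigh most, and a sum does not measure the amount of a cell type. Lum, a matrix proteoglycan, was at 1.71 ± 0.17, Dcn, another, at 0.66 ± 0.20, and the stromal factor gene Tbx18 at 0.66 ± 0.10, with another probe at 0.68. The matrix genes Postn at -0.42 ± 0.10 and Col1a1 at -0.31 ± 0.15 were called lower, with other probes at -0.01 for Postn and from -0.12 to 0.02 for Col1a1, and Vim at 0.03 ± 0.03 did not pass. Col1a1 was saturated on 3 arrays in each channel and Vim on 3 arrays in the channel labelled Scriptaid. Without these 2 genes, the sums of the other 10 stromal markers ranged from 108320 to 113774 in the channel labelled Scriptaid and from 73803 to 82751 in the channel labelled Nullscript. Of 14 mesangial, pericyte and smooth muscle markers, 5 were higher, 5 lower and 4 did not pass, with a median of -0.03 and sums of 54992 to 63476, against 50067 to 54919 in the channel labelled Nullscript. Kcnj8 at 1.84 ± 0.20 and Abcc9 at 1.35 ± 0.14, subunits of a potassium channel of pericytes, and the integrin gene Itga8 at 1.00 ± 0.22 were higher by their brightest probes. Another Kcnj8 probe was at 1.37, other Abcc9 probes were at 0.45 to 0.54 and other Itga8 probes at 0.12 to 0.97. The adhesion gene Mcam was lower at -0.75 ± 0.13, with another probe at -0.28. Cnn1 at -0.62 ± 0.13 and Rgs5 at -0.61 ± 0.19 were also called lower, with another Rgs5 probe at -0.46. So were Cspg4 at -0.20 ± 0.12 and Myh11 at -0.14 ± 0.05. Notch3 at 0.50 ± 0.06 and Ren1 at 0.30 ± 0.04 were called higher, with another Ren1 probe at 0.07. Acta2 at -0.02 ± 0.24 and Tagln at -0.03 ± 0.17 did not pass, with another Tagln probe at 0.54. Des at 0.16 ± 0.14 and Anpep at -0.12 ± 0.08 did not pass either. The part of these markers in the ratios of Pdgfra and Pdgfrb was not tested.

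Of 12 endothelial markers, 9 were higher and 2 lower, with a median of 0.51 and sums of 39423 to 40116, against 24710 to 30263 in the channel labelled Nullscript. Icam2 at 1.47 ± 0.29, Esam at 1.07 ± 0.21, Emcn at 1.02 ± 0.24 and Cdh5 at 0.95 ± 0.20, all surface proteins of endothelium, were higher, with another Cdh5 probe at 0.80, beside 0.27 for the brightest probe of Pdgfb, a ligand gene that endothelium is known to express. Egfl7 at -0.36 ± 0.06 and Flt1 at -0.21 ± 0.08 were called lower, with other Flt1 probes from -0.17 to 0.19. Tek at 0.03 ± 0.04 did not pass, with another probe at 0.48. Of 8 blood progenitor markers, 5 were higher and none lower, with a median of 0.23 and sums of 20655 to 22738, against 12493 to 16046 in the channel labelled Nullscript. The surface protein genes Cd93 at 1.09 ± 0.20, Ptprc at 1.07 ± 0.12 and Cd34 at 0.83 ± 0.19 were higher, although a second Cd93 probe was at 0.13 and other Ptprc probes ran from -0.11 to 0.15. Cd34 had the brightest probe of this list, at a mean log2 intensity of 12.82, and so weighed most in the sums. Sums without Cd34 and Cd93 were not computed. Runx1 at -0.04 ± 0.10, Gata1 at -0.03 ± 0.01 and Ikzf1 at 0.03 ± 0.07 did not pass. Tal1, a helix-loop-helix factor of blood progenitors, was at 0.27 ± 0.06, a call lost with Scriptaid in Cy3 only (0.16; limma adjusted p = 0.0976). Their part in the ratios of Pdgfb and Kit was not tested.

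Mast cells and melanocytes also carry Kit. Of 8 mast cell markers, 2 were higher, 2 lower and 4 did not pass, with a median of -0.04 and sums of 6781 to 8497, against 7258 to 8427 in the channel labelled Nullscript. Hdc, the histamine-forming enzyme, was at 0.45 ± 0.13. The calls of Gata2 at -0.15 ± 0.08, Cma1 at 0.13 ± 0.05 and Fcer1a at -0.09 ± 0.02 were each lost under 6 or more of 14 alternatives, and another Cma1 probe was at 0.02. Of 8 melanocyte and neural crest markers, 1 was higher, 2 lower and 5 did not pass, with sums of 4616 to 5201, against 4358 to 4754 in the channel labelled Nullscript. Ednrb, an endothelin receptor, was at 1.25 ± 0.14, with another probe at 0.78. Pmel, a melanosome protein, was at -0.79 ± 0.08 and Mitf, the melanocyte factor, at -0.59 ± 0.10, with a second Mitf probe at 0.16. Dct, Tyr and Tyrp1, which mark pigment cells, did not pass.

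Of 13 ureteric bud markers, 6 were higher, 2 lower and 5 did not pass, with a median of 0.11 and sums of 91425 to 105700, against 88053 to 99578 in the channel labelled Nullscript. Emx2, a homeobox factor, was at 0.98 ± 0.12, with another probe at 0.78, and Gata3 at 0.78 ± 0.10, whereas Cdh1, epithelial cadherin, was at -0.68 ± 0.06 (SD, n = 3). The filter required the genes in these marker lists to be well above background for at least 1 drug. That does not show that a cell type was present. The part of these markers in the ratios of Kit and Kitl was not tested.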

How the data were processed

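RNA of kidneys labelled Scriptaid and kidneys labelled Nullscript was measured on 6 arrays of 3 biological replicates, with the channel of each drug taken from the dye fields. Where the series text mentions 4 arrays, 2 of them swapped, the fields of the 6 arrays were followed. The deposited scanner files, written by Agilent Feature Extraction 9.1.3.1 per the file headers, hold raw, background and processed intensity for both dyes. The deposited series table holds log10 ratios, which equal the scanner ratio of labelled Scriptaid over labelled Nullscript within 4.82e-06.

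Intensities were background-corrected (normexp, offset 50) and loess-normalised by limma 3.58.1 in R 4.3.3, giving controls no weight and leaving out feature outliers. Spots of a probe and then the 2 arrays of a replicate were averaged. Probes that 3 or more of 6 arrays put well above background for a drug were tested, as the mean log2 ratio of 3 replicates against 0, with Benjamini-Hochberg adjustment over 39407 probes, or over 26500 genes by their brightest probe. Log2 intensities per channel came after loess and Aquantile. The limma fits on replicate means and on 6 arrays with a dye term were tested on simulated data, and the other steps were not. Of 41174 probes, 22951 were named by accession, 6659 by a current and 3109 by an older symbol, and 8455 kept the file's name.

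The labels state that both arrays of a number are the same biological replicate. After the mean of each dye orientation was removed, the arrays of replicates 1, 2 and 3 correlated at 0.61, 0.13 and 0.01, and arrays of different replicates at -0.42 to 0.26. The array number limits the precision. Alternatives covered replicates, dyes, slide, background, normalisation, filters and the deposited table.

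The 8 genes, the 13 lists and the tests were chosen with earlier results of these data known. Named genes are all 8 members, up to 4 genes of each list with the largest absolute ratio among those that passed, the 3 nearest genes to the highest and the lowest called probe, and H1f0, Gsn and Cdkn1a. A gene that this rule takes is not reported here. Flt3, Il34, Dct, Tyr, Tyrp1, Postn, Col1a1, Vim, Egfl7, Flt1, Tek, Runx1, Gata1 and Ikzf1 fall outside this rule and were named after their values were seen. The same holds for Cnn1, Rgs5, Cspg4, Myh11, Notch3, Ren1, Acta2, Tagln, Des and Anpep.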

Additional observations from a re-analysis of the deposited data

How the results depend on the processing

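Each of the 10 probes called higher kept its direction and its call under all 14 alternatives. The number of probes of the 8 genes called higher was 10 or 11 under each alternative that counts probes, and 7 genes were called with either the brightest probe or, added after the data had been seen, the mean over the probes of a gene. The number called lower was 1, but 0 without replicate 2, without replicate 3, within the slide of 2 replicates and with the slide as a block, and 2 with median centring, where A_52_P572571 of Kitl and A_52_P408629 of Pdgfc passed and A_51_P133936 of Kitl did not. Leaving out 1 replicate gave 10 to 11 probes higher and 0 to 1 lower, 6337 to 8613 of all probes higher and 5331 to 7784 lower, and 53 to 62 list genes higher and 24 to 36 lower. The slide of 2 replicates gives the lowest of these, with 5331 of all probes and 24 list genes called lower. With the replicate block (6 arrays with a dye term), 9857 of all probes were higher and 8989 lower, 11 probes of the 8 genes were higher and 1 lower, and the added probe was A_52_P264283 of Pdgfra at 0.12. The block changed no other call among the 15 probes.

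The Kitl probe A_51_P133936 ranged from -0.37 to -0.09 (limma adjusted p from 0.00456 to 0.332), with -0.09 when only arrays with Scriptaid in Cy5 were used and -0.15 with median centring. Probe A_52_P408629 of Pdgfc turned to 0.0071 without replicate 3 and within the slide of 2 replicates (-0.023 without replicate 1) and to 0.00020 with Scriptaid in Cy5 only. Probe A_51_P175262 of Pdgfb turned to -0.014 with median centring. Among differences between probes that had not passed, that of Kitl turned to -0.039 without replicate 2, -0.0039 without replicate 3 and within the slide of 2 replicates (0.20 without replicate 1), -0.22 with Scriptaid in Cy5 only and -0.040 with median centring, and that of Pdgfa to -0.022 and -0.017 in the last 2 settings. The Pdgfd difference turned to 0.013 with Scriptaid in Cy5 only and to 0.22 with processed signals or the deposited table (limma adjusted p = 0.0447 and 0.0446). The cause was not tested. Of 390 list counts, 335 stayed within 1.5 times the first value. The median of all probes lay between -0.04 and 0.01 in every setting. No probe of the 8 genes was saturated.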

Other observations

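Pdgfrl, which encodes a receptor-like protein related to the PDGF receptors but without a kinase, was looked up after the values of the 8 genes had been seen. Its probe A_51_P466229 had log2 ratios, labelled Scriptaid over labelled Nullscript, of 1.35, 1.05 and 1.19 in replicates 1, 2 and 3. The mean was 1.20 ± 0.15 (SD, n = 3; limma adjusted p = 0.000301), positive in 3 of 3 replicates.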
